A study of Mus musculus with 12 samples.

Results

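The fibrillar collagens are the chains of the collagens that polymerize into the banded fibrils of cartilage, bone and tendon. They were followed here in immortalized mandibular fibrochondrocytes with a truncated or a full-length NG2/CSPG4 ectodomain. The members were the rows of the deposited table whose symbol was Col1a1, Col1a2, Col2a1, Col3a1, Col5a1, Col5a2, Col5a3, Col11a1, Col24a1 or Col27a1, so 10 of the 29862 genes in the table. All 10 were found once, passed the filter on low counts and were among the 18703 genes tested. Bulk poly(A) RNA-seq was available for 12 libraries in 4 groups of 3 biological replicates: NG2|EDmut cells under serum starvation, NG2|EDmut cells in serum, control cells under serum starvation and control cells in serum. All cells descended from mandibular condylar cartilage cells of C57BL/6J mouse pups made immortal with hTERT, the catalytic subunit of telomerase. All carried a GFP reporter. The control line was 1 fast-growing clone of those cells with the full-length NG2/CSPG4 ectodomain. The NG2|EDmut line was 1 CRISPR/Cas9-edited clone derived from it, in which the region of the ectodomain that binds type VI collagen was truncated. The serum medium was AMEM with heat-inactivated fetal bovine serum and the starvation medium was Optimem without serum, so the base medium differed as well, and the duration of starvation was not stated in the paper or the labels. With 1 line of each kind, the p-values rest on the variation among cultures, and the edit cannot be told apart from other differences between the 2 clones.

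Fibrillar collagens are secreted as procollagens whose chains wind around each other in a helix, are trimmed at both ends outside the cell and then align into fibrils. Type I collagen, built from more Col1a1 than Col1a2 chains, is the main fibril of bone, tendon and fibrocartilage, type III collagen is a homotrimer of Col3a1 that joins type I fibrils in soft and healing tissue, and type II collagen, a homotrimer of Col2a1, is the main fibril of hyaline cartilage. The chains of type V (Col5a1, Col5a2, Col5a3) and type XI (Col11a1, with Col11a2 and a Col2a1 product) are minor parts of those fibrils that start them and limit their width. Col24a1 and Col27a1 encode the chains of types XXIV and XXVII, which are known from developing bone and from cartilage. The condylar cartilage of the mandible is a fibrocartilage and is known to hold type I and type II collagen side by side.

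Total estimated counts, which the authors made from read coverage, were between 60277881 and 77172479 per library, and the spread between replicates, not depth, set the precision for the abundant members. Cspg4, the edited gene, was listed at 16, 18.5 and 19.9 FPKM in NG2|EDmut starvation, 19.7, 17.4 and 11.8 FPKM in NG2|EDmut serum, 7.43, 3.94 and 7.83 FPKM in control starvation and 14.1, 10.5 and 6.52 FPKM in control serum (FPKM, a level scaled to gene length and depth), and a value over the whole gene does not check a truncation. Cspg4 was called higher in NG2|EDmut than in control cells under starvation (log2 fold change 1.44, adjusted p = 0.00214, edgeR). In serum it did not pass (0.65, adjusted p = 0.111, edgeR). Control serum replicate 1 stood apart from its group. Over 9488 genes its root mean square distance on the log2 CPM scale (CPM, counts scaled to library size with TMM) was 0.683 and 0.735 to the other control serum libraries, which were 0.343 apart, and 0.475, 0.615 and 0.490 to the control starvation libraries. Its distance to the NG2|EDmut libraries was 0.705 to 0.748, whereas the other control serum libraries were 0.816 to 0.940 from them. Counts of members called are therefore given with and without control serum replicate 1. Other results come from the full set of 12 libraries unless stated. Of 9 chondrocyte markers besides Col2a1, 4 reached 1 FPKM in any library. Hapln1, the cartilage link protein, was at 5.97 to 21.6 FPKM and Sox9 at 4.29 to 10.9 FPKM, and the matrix genes Matn3 and Comp reached 3.07 and 3.02 FPKM. Acan, the core protein of aggrecan, reached 0.168 FPKM and Col9a1 0.0281 FPKM at most. Summed over 6 osteoblast markers, the level was 1450 to 1830 FPKM in NG2|EDmut starvation, 1880 to 2100 FPKM in NG2|EDmut serum, 116 to 161 FPKM in control starvation and 149, 167 and 661 FPKM in control serum, the last in replicate 1. Of these markers Sp7, Bglap, Ibsp and Alpl had higher means in NG2|EDmut than in control cells in both media, whereas Dmp1 (0.229 FPKM in NG2|EDmut starvation and 4.52 FPKM in control starvation, 2.25 FPKM in NG2|EDmut serum and 2.51 FPKM in control serum) and Phex (0.124 FPKM in NG2|EDmut starvation and 0.318 FPKM in control starvation, 0.131 FPKM in NG2|EDmut serum and 0.885 FPKM in control serum) had lower ones. Summed over 7 mesenchymal fibroblast markers, the level was 639 to 695 FPKM in NG2|EDmut starvation, 646 to 673 FPKM in NG2|EDmut serum, 1150 to 1300 FPKM in control starvation and 810 to 1200 FPKM in control serum. It was thus lower in every NG2|EDmut library than in any control library, as was Col3a1, and 6 of the 7 markers, all but Thy1, had lower means in NG2|EDmut cells in both media. S100a4 averaged 96.7 FPKM in NG2|EDmut starvation and 454 FPKM in control starvation, and 101 FPKM in NG2|EDmut serum and 346 FPKM in control serum. The part of these osteoblast and fibroblast marker differences in the results was not tested, and in bulk RNA fewer cells of a type and less RNA per cell cannot be told apart. The summed level of 5 macrophage markers reached 3.31 FPKM at most and that of 5 endothelial markers 0.181 FPKM.

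The type I chains made up most of the fibrillar collagen RNA in every group. The 10 members together took 4.39% to 5.93% of all estimated counts per library. Their summed FPKM averaged 6086 ± 259 in NG2|EDmut starvation, 6240 ± 321 in NG2|EDmut serum, 5639 ± 664 in control starvation and 5670 ± 831 in control serum (SD, n = 3 each), and these ranges overlapped between all groups. Col1a1 and Col1a2 held 83.3% to 88.1% of that sum in each library. Col3a1 held 2.44% to 3.39% in NG2|EDmut starvation, 1.21% to 1.70% in NG2|EDmut serum, 6.49% to 6.71% in control starvation and 3.96%, 8.53% and 8.63% in control serum. Ordered by FPKM, which is per length, Col1a1 and Col1a2 came first in all 4 groups without overlap. In both NG2|EDmut groups Col5a1, Col5a2 and Col3a1 followed in that order without overlap, whereas in both control groups Col3a1 had the third-highest mean. It lay clear of the type V chains in control starvation and overlapped Col5a2 in control serum, where Col5a2 and Col5a1 also overlapped. Col11a1 and Col5a3 were sixth and seventh in every group, and Col2a1, Col24a1 and Col27a1 were the lowest members, with Col24a1 and Col27a1 overlapping in all 4 groups.

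**Figure D1:**
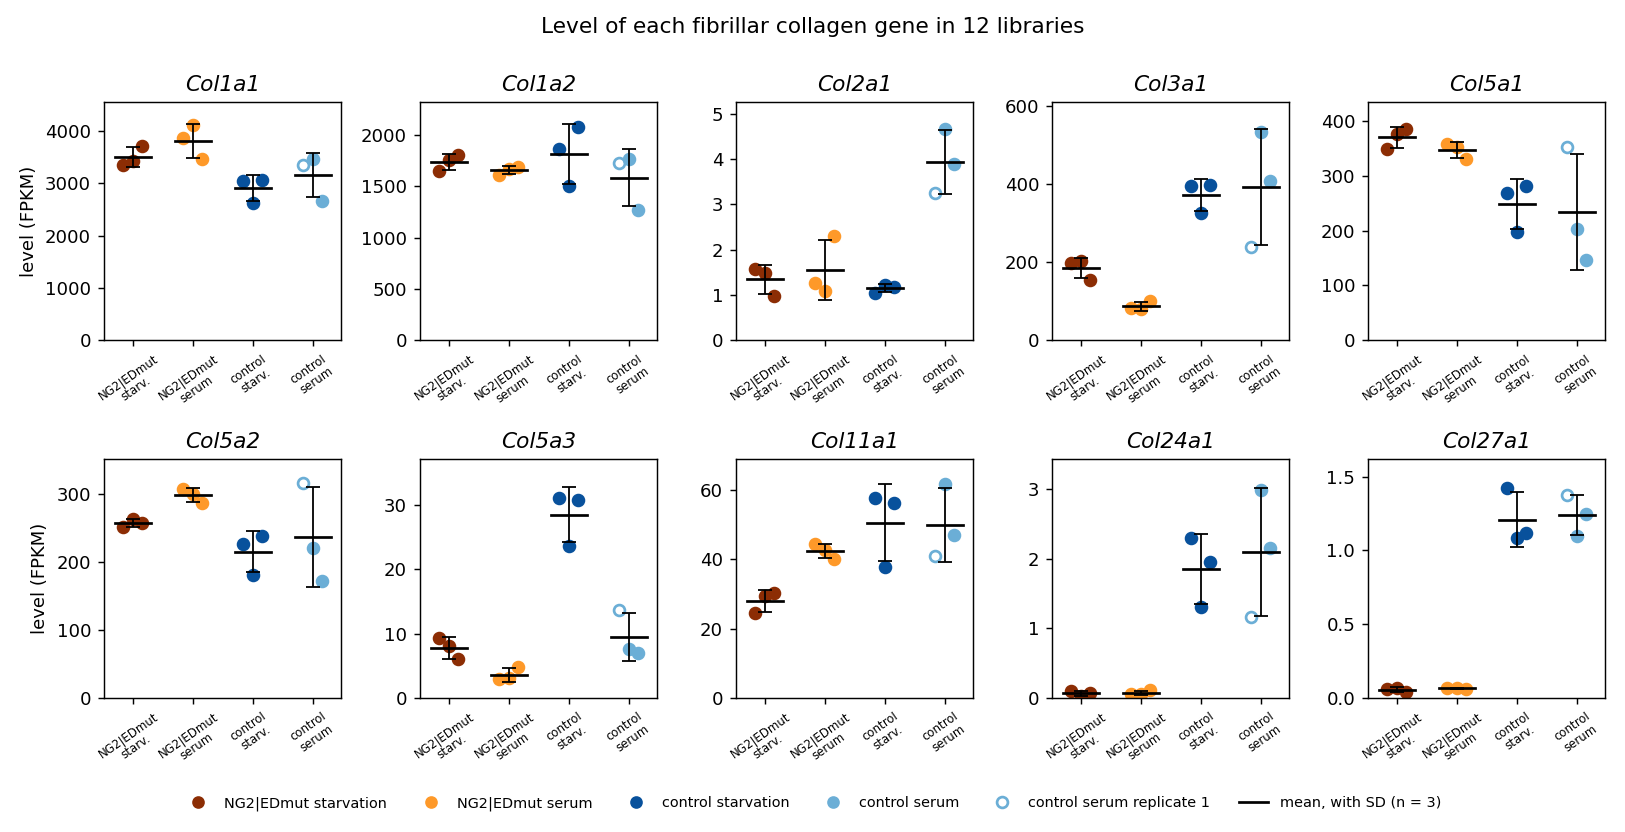
Level in FPKM (linear axes from 0) of each fibrillar collagen gene in every library, by group, with points for libraries, an open point for control serum replicate 1, and lines for the mean and SD of 3 replicates. Col24a1 and Col27a1 reached 0.111 FPKM at most in the 6 NG2|EDmut libraries and 1.08 FPKM at least in the 6 control libraries, and Col3a1 was lower in every NG2|EDmut library than in any control library.

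The first question was which fibrillar collagen genes differed between NG2|EDmut and control cells, in each medium. In serum, 5 of 10 members fell in NG2|EDmut cells and 0 rose by edgeR's quasi-likelihood test (Benjamini-Hochberg adjusted p under 0.05 over all genes tested), where 16.2% of all tested genes were called lower and 15.4% higher. Under starvation, again 5 fell and 0 rose, where 20.1% of all tested genes were called lower and 17.9% higher. At an unadjusted p under 0.05 there was 1 higher member in serum (Col5a1) and 0 under starvation, and DESeq2 called 0 higher in both media. Col3a1, Col5a3, Col24a1 and Col27a1 fell in both media, Col2a1 in serum and Col11a1 under starvation. When control serum replicate 1 was left out, 5 members fell and 2 rose in serum (20.2% of 19265 genes called lower and 19.5% higher), and 5 fell and 1 rose under starvation (23.2% lower and 21.7% higher). The median log2 fold change of the members was -0.80 in serum and -0.52 under starvation, beside -0.03 and -0.02 over all genes tested. These medians fell in a gap and do not describe a shift of all members. The nearest members were Col11a1 (-0.25) and Col2a1 (-1.36) in serum, and Col1a2 (-0.13) and Col11a1 (-0.91) under starvation.

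Col27a1 and Col24a1 had the largest differences of the family. Col27a1 (ENSMUSG00000045672, chr4:63214004-63333749 of GRCm38, plus strand) had 0.0654, 0.0656 and 0.0641 FPKM in NG2|EDmut serum, against 1.37, 1.10 and 1.25 FPKM in control serum. Under starvation it had 0.0626, 0.0675 and 0.0410 FPKM in NG2|EDmut cells, against 1.43, 1.08 and 1.12 FPKM in control cells. Every control library was above every NG2|EDmut library. The log2 fold change was -4.23 ± 0.20 (SE, adjusted p = 2.25e-07, edgeR) in serum, an 18.8-fold lower level, and -4.45 ± 0.20 (adjusted p = 5.31e-08, edgeR), 21.9-fold lower, under starvation. Its estimated counts were 45 to 72 in NG2|EDmut libraries and 916 to 1458 in control libraries, so the low values were above 0.

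Col24a1 (ENSMUSG00000028197, chr3:145292472-145552011, plus strand) had 0.0580, 0.0568 and 0.111 FPKM in NG2|EDmut serum, against 1.16, 2.99 and 2.15 FPKM in control serum. Under starvation it had 0.0979, 0.0323 and 0.0725 FPKM in NG2|EDmut cells, against 2.30, 1.31 and 1.95 FPKM in control cells. The groups did not overlap, and control serum replicate 1 was the lowest control library. The log2 fold change was -4.80 ± 0.47 (adjusted p = 1.8e-05, edgeR) in serum and -4.81 ± 0.48 (adjusted p = 1.04e-05, edgeR) under starvation, and -5.09 (adjusted p = 1.7e-06) in serum without that library. On the log2(FPKM + 1) scale, which compresses low values, the differences of Col24a1 were -1.48 in serum and -1.40 under starvation and those of Col27a1 were -1.07 and -1.06, all still past the threshold by limma-trend. In both NG2|EDmut groups these genes were the lowest of the family.

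Col3a1, the type III chain (ENSMUSG00000026043, chr1:45311538-45349706, plus strand), had 83.2, 79.2 and 101 FPKM in NG2|EDmut serum, against 239, 534 and 407 FPKM in control serum. Under starvation it had 198, 203 and 155 FPKM in NG2|EDmut cells, against 395, 326 and 398 FPKM in control cells. The groups did not overlap in either medium, although control serum replicate 1 had less than the other control libraries. The log2 fold change was -2.18 ± 0.25 (adjusted p = 5.8e-05, edgeR), 4.54-fold lower, in serum and -1.08 ± 0.24 (adjusted p = 0.00415, edgeR), 2.11-fold lower, under starvation. With that library left out these were -2.45 (adjusted p = 4.81e-07) and -1.08 (adjusted p = 7.31e-05). Its neighbour Col5a2 (chr1:45374321-45503282, minus strand) lies on the other strand with its 3′ end 24614 bases from that of Col3a1, and it did not pass the test with all 12 libraries in either medium.

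Col5a3, the third type V chain (ENSMUSG00000004098, chr9:20770050-20815067, minus strand), had 2.92, 3.05 and 4.82 FPKM in NG2|EDmut serum, against 13.7, 7.69 and 7.03 FPKM in control serum. Under starvation it had 9.28, 8.03 and 6.0 FPKM in NG2|EDmut cells, against 31.1, 23.6 and 30.8 FPKM in control cells. All control values lay above all NG2|EDmut values in the same medium. The log2 fold change was -1.41 ± 0.27 (adjusted p = 0.0021, edgeR) in serum, -1.05 (adjusted p = 0.00257) without control serum replicate 1, and -1.94 ± 0.27 (adjusted p = 0.00016, edgeR) under starvation.

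The type V chains Col5a1 and Col5a2, which form the common type V heterotrimer, did not follow Col5a3. Col5a1 (ENSMUSG00000026837, chr2:27886425-28039514, plus strand) had 358, 352 and 331 FPKM in NG2|EDmut serum, against 352, 203 and 146 FPKM in control serum, and 349, 376 and 385 FPKM in NG2|EDmut starvation, against 269, 197 and 281 FPKM in control starvation. The first control serum value, that of replicate 1, lay among the NG2|EDmut values and the other control values lay below them. With all 12 libraries the log2 fold changes of 0.56 ± 0.24 in serum (adjusted p = 0.0996, edgeR) and 0.51 ± 0.24 under starvation (adjusted p = 0.124) did not pass. Without control serum replicate 1, Col5a1 rose in NG2|EDmut cells by 0.97 in serum (adjusted p = 0.000418) and by 0.51 under starvation (adjusted p = 0.0092), where the difference kept its size and its SE was 0.14. The serum call was made in 1 of 24 alternatives, over which the log2 difference of Col5a1 in serum was 0.32 to 0.97. The starvation difference also passed when only the groups compared entered the fit and when control serum replicate 3 was left out. Col5a2 (ENSMUSG00000026042) had 307, 300.2 and 287 FPKM in NG2|EDmut serum, against 316, 221 and 172 FPKM in control serum, a log2 difference of 0.33 ± 0.18 (adjusted p = 0.188), which was 0.58 without control serum replicate 1 (adjusted p = 0.00293, edgeR). That call was made in 1 of 24 alternatives, over which the serum difference of Col5a2 was 0.15 to 0.58. Under starvation Col5a2 had 251, 263 and 258 FPKM in NG2|EDmut cells, against 226, 181 and 238 FPKM in control cells, with a log2 difference of 0.19 ± 0.18 (adjusted p = 0.43).

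The cartilage-type chains passed the test between the lines in 1 medium each. Col2a1 (ENSMUSG00000022483, chr15:97975602-98004695, minus strand) had 1.26, 1.08 and 2.30 FPKM in NG2|EDmut serum, against 3.25, 4.68 and 3.88 FPKM in control serum, and fell by 1.36 on the log2 scale (SE 0.28, adjusted p = 0.00298, edgeR). Under starvation Col2a1 had 1.58, 1.5 and 0.986 FPKM in NG2|EDmut cells, against 1.05, 1.22 and 1.19 FPKM in control cells, which overlapped (log2 difference 0.16 ± 0.27, adjusted p = 0.686). Thus the main chain of hyaline cartilage was at a low level in both lines. Col11a1 (ENSMUSG00000027966, chr3:114030540-114220718, plus strand) had 44.4, 42.5 and 40.2 FPKM in NG2|EDmut serum, against 40.8, 61.6 and 47.0 FPKM in control serum (log2 difference -0.25 ± 0.18, adjusted p = 0.318). Under starvation Col11a1 had 24.5, 29.4 and 30.4 FPKM in NG2|EDmut cells, against 57.6, 37.8 and 56.3 FPKM in control cells, and fell by 0.91 (SE 0.18, adjusted p = 0.00168, edgeR). This was a 1.88-fold lower level, and over the alternatives the log2 fold change of Col11a1 was between -1.06 and -0.76.

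Col11a2, the partner of Col11a1 in type XI collagen and not among the 10 members, did not fall with it. It had 22.2, 26.8 and 20.1 FPKM in NG2|EDmut serum, against 20.2, 1.56 and 0.952 FPKM in control serum. Control serum replicate 1 again lay among the NG2|EDmut values. The log2 difference was 1.61 ± 0.83 (adjusted p = 0.162, edgeR), and 4.17 (adjusted p = 2.24e-06) without that library. Under starvation Col11a2 had 12.2, 14.1 and 22.4 FPKM in NG2|EDmut cells, against 3.21, 1.96 and 3.0 FPKM in control cells, and rose by 2.51 ± 0.86 (adjusted p = 0.0361, edgeR), a call that was lost in 8 of 24 alternatives.

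The type I chains did not pass the test between the lines in either medium. Col1a1 (ENSMUSG00000001506, chr11:94936224-94953042, plus strand) had 3854, 4101 and 3455 FPKM in NG2|EDmut serum, against 3336, 3461 and 2667 FPKM in control serum, and 3353, 3425 and 3711 FPKM in NG2|EDmut starvation, against 3044, 2616 and 3055 FPKM in control starvation. The log2 differences were 0.26 ± 0.13 in serum (adjusted p = 0.165, edgeR) and 0.20 ± 0.13 under starvation (adjusted p = 0.266). Col1a2 (ENSMUSG00000029661, chr6:4504814-4541544, plus strand) had 1614, 1669 and 1686 FPKM in NG2|EDmut serum, against 1728, 1762 and 1265 FPKM in control serum, and 1654, 1756 and 1809 FPKM in NG2|EDmut starvation, against 1863, 1501 and 2077 FPKM in control starvation. Its log2 differences of 0.05 ± 0.15 (adjusted p = 0.824) and -0.13 ± 0.15 (adjusted p = 0.553) were smaller than their errors. A p that missed the threshold does not show that the lines had the same level.

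**Figure D2:**
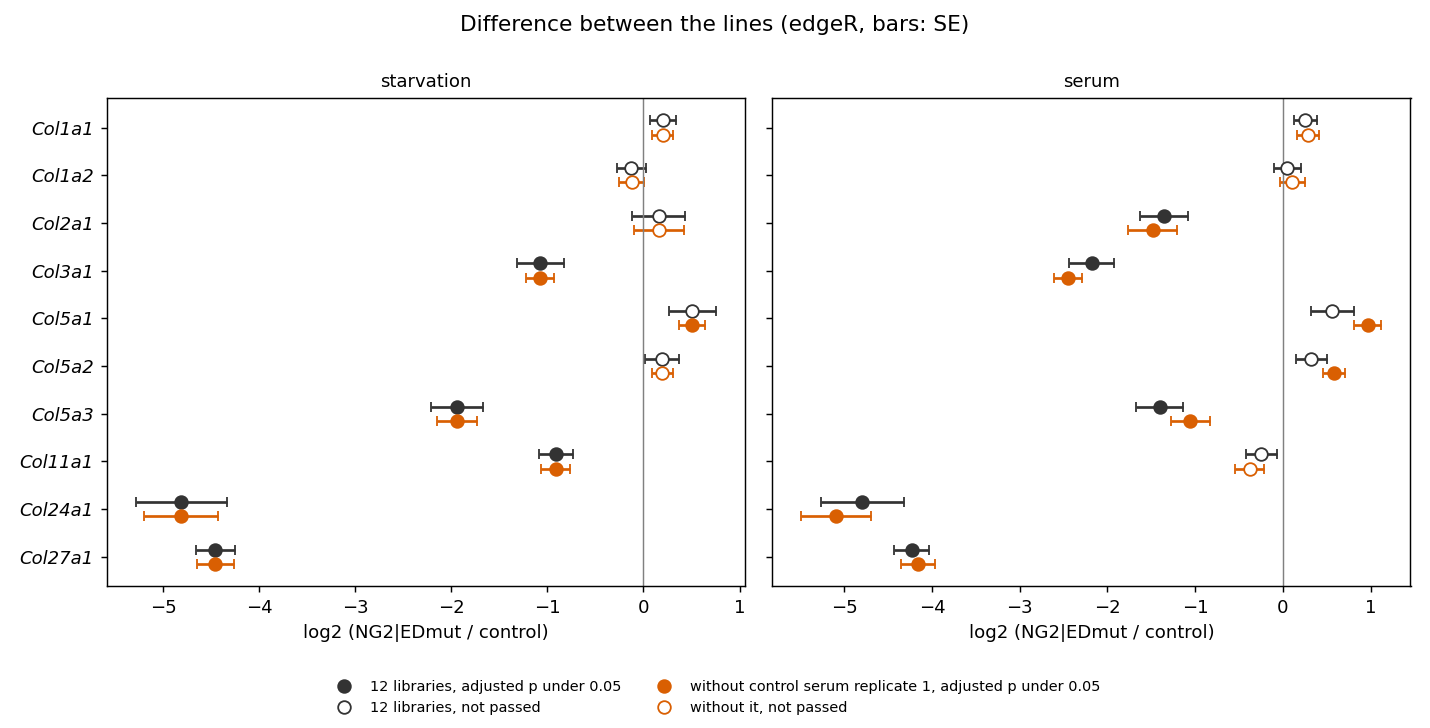
Log2 fold change of NG2|EDmut over control with its SE for each member, under starvation and in serum, from all 12 libraries and without control serum replicate 1, with filled points past an adjusted p of 0.05. Col24a1 and Col27a1 lay between -5.09 and -4.16 in every fit shown, and Col5a1 and Col5a2 changed their call in serum when that library was left out.

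Starvation and serum were then compared within each line. In NG2|EDmut cells 1 member rose under starvation and 0 fell, where 0.957% of all tested genes were called higher and 1.1% lower. At an unadjusted p under 0.05 there were 2 higher members and 1 lower. DESeq2 called the same numbers, where it called 436 of 16498 genes higher and 459 lower. Control serum replicate 1 is not among the libraries compared here, but it entered the shared estimate of the spread, the filter and the scaling, and when it was left out 2 members rose and 1 fell (3.11% higher and 4.43% lower over all genes). Col3a1 was higher in all 3 NG2|EDmut starvation libraries than in any NG2|EDmut serum library (values above). It rose by 1.06 ± 0.24 (adjusted p = 0.0469, edgeR), or 2.09-fold, and the call was lost in 12 of 24 alternatives, in which the adjusted p reached 0.206, while the difference stayed between 0.99 and 1.18. The adjusted p was 0.000913 without control serum replicate 1. Col5a3 was also higher in every NG2|EDmut starvation library, by 1.10 ± 0.27 (adjusted p = 0.0626, edgeR), and passed without that library (adjusted p = 0.00659). Col11a1 was lower in every NG2|EDmut starvation library, with a log2 difference of -0.61 ± 0.18 (adjusted p = 0.125), and passed without control serum replicate 1 (adjusted p = 0.0305). The other 7 members had log2 differences between -0.23 and 0.08.

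In control cells, where control serum replicate 1 is 1 of the serum libraries, 1 member rose under starvation and 1 fell, where 9.45% of all tested genes were called higher and 10.8% lower. The order of the lines by the share of all genes called depended on the fit. When only the groups compared entered it, 394 genes were called higher and 401 lower of 17438 in control cells. In NG2|EDmut cells these were 1221 and 1539 of 17542. With control serum replicate 1 left out, 2 members rose and 1 fell (17.3% higher and 15.8% lower over all genes). Col5a3 rose by 1.63 ± 0.27 (adjusted p = 0.00212, edgeR), 3.1-fold, and by 1.98 (adjusted p = 6.14e-05) without that library. Col2a1 fell by 1.73 on the log2 scale (SE 0.28, adjusted p = 0.00186, edgeR), with all 3 control starvation libraries below all control serum libraries. Col3a1 overlapped between the media in control cells (-0.04 ± 0.24, adjusted p = 0.933), and had a log2 difference of -0.31 (adjusted p = 0.165) without control serum replicate 1. Col5a1 had a log2 difference of 0.14 ± 0.24 (adjusted p = 0.754) and rose by 0.54 (adjusted p = 0.0183, edgeR) when that library was left out. This was the only 1 of 24 alternatives in which Col5a1 passed, and over all of them its difference was -0.11 to 0.54. Col1a1, Col1a2, Col5a2, Col11a1, Col24a1 and Col27a1 did not pass with or without it.

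**Figure D3:**
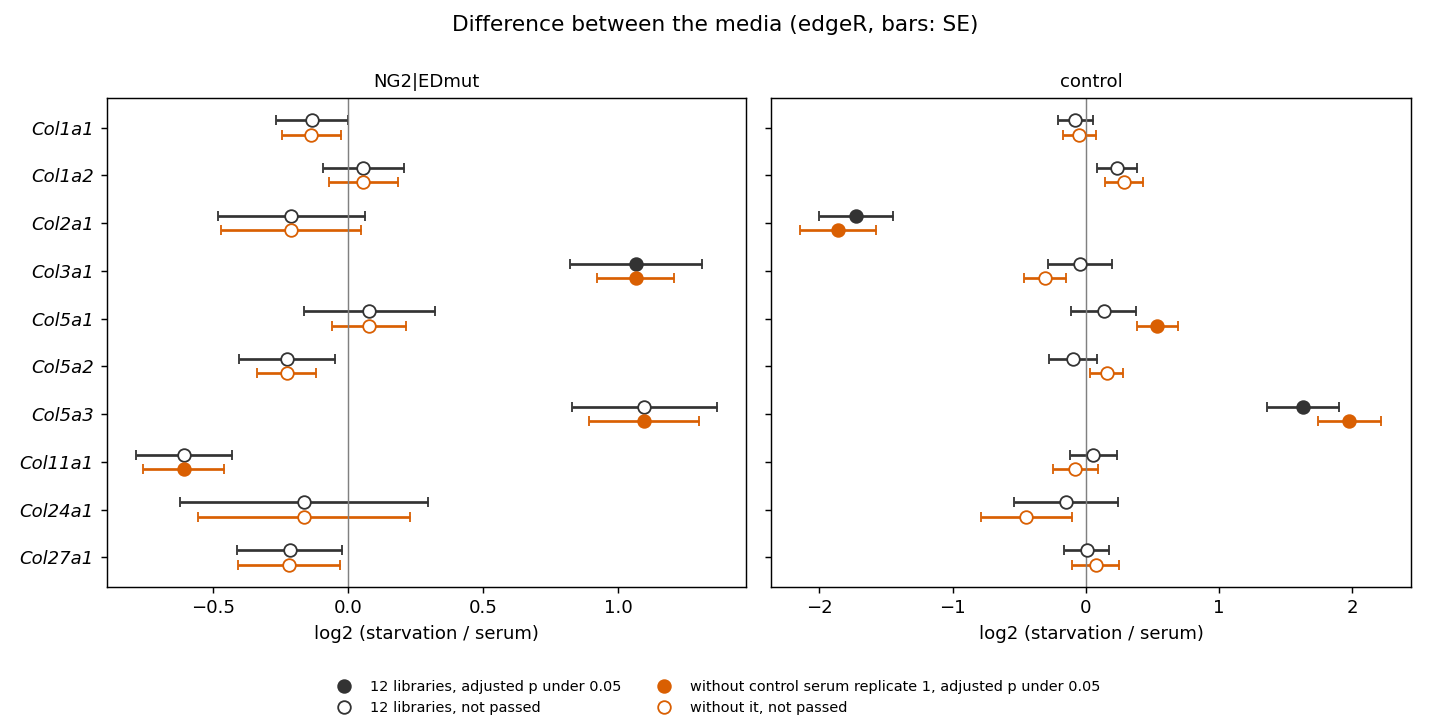
Log2 fold change of starvation over serum with its SE for each member, in NG2|EDmut and in control cells, from all 12 libraries and without control serum replicate 1, with filled points past an adjusted p of 0.05 and a scale of its own for each line. Col5a3 lay at 1.10 and 1.63 in the 2 lines, Col3a1 at 1.06 in NG2|EDmut and -0.04 in control cells, and Col2a1 at -0.21 in NG2|EDmut and -1.73 in control cells.

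Whether starvation acted differently in the lines was tested by the interaction, the starvation difference of NG2|EDmut cells minus that of control cells. Of the 10 members 1 had a higher and 0 a lower interaction term, where 2.03% of all tested genes were called higher and 2.36% lower. Over all genes that split was 380 higher and 441 lower, and 494 higher and 362 lower when libraries were scaled by their totals alone. At an unadjusted p under 0.05 there were 2 higher members and 1 lower. DESeq2 called 2 higher and 0 lower, where it called 828 of 18234 genes higher and 776 lower. When control serum replicate 1 was left out, 2 members were called higher and 0 lower (10.3% higher and 9.94% lower over all genes). The interaction of Col2a1 was 1.52 ± 0.39 (adjusted p = 0.0484, edgeR), and 1.65 (adjusted p = 0.0106) without that library. The Col2a1 call was lost in 12 of 23 alternatives, over which the adjusted p was 0.00358 to 0.125. The interaction of Col3a1 was 1.11 ± 0.34 (adjusted p = 0.0977, edgeR) and passed without control serum replicate 1, at 1.37 (adjusted p = 0.000781). For Col5a3 it was -0.54 ± 0.38 (adjusted p = 0.495), so the rises of Col5a3 in the lines were not shown to differ, and for Col11a1 it was -0.67 ± 0.25 (adjusted p = 0.174).

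Ratios of chains that share a molecule or a mixed fibril were formed within each library from FPKM. With 3 libraries against 3 the exact two-sided permutation test cannot go below p = 0.1, and with 12 ratio comparisons the smallest adjusted p was 0.15, so none could pass. Col3a1 to Col1a1 was 0.0591, 0.0593 and 0.0418 in NG2|EDmut starvation, 0.0216, 0.0193 and 0.0291 in NG2|EDmut serum, 0.130, 0.125 and 0.130 in control starvation and 0.0716, 0.154 and 0.153 in control serum. The groups of the lines did not overlap, with log2 differences of -2.37 in serum (exact permutation p = 0.1, adjusted 0.15) and -1.28 under starvation (exact permutation p = 0.1, adjusted 0.15), and -2.74 in serum without control serum replicate 1. Col1a1 to Col1a2 averaged 2.01 ± 0.0529 in NG2|EDmut starvation, 2.30 ± 0.218 in NG2|EDmut serum, 1.62 ± 0.137 in control starvation and 2.0 ± 0.0941 in control serum (SD, n = 3 each). This ratio overlapped between the lines in serum (log2 difference 0.20, exact permutation p = 0.2, adjusted 0.218) and did not under starvation (0.32, exact permutation p = 0.1, adjusted 0.15). Col5a1 to Col5a2 was higher in every NG2|EDmut library than in any control library of the same medium. It averaged 1.44 ± 0.0511 in NG2|EDmut starvation, 1.16 ± 0.0085 in NG2|EDmut serum, 1.15 ± 0.0572 in control starvation and 0.960 ± 0.136 in control serum (SD, n = 3 each), with log2 differences between the lines of 0.29 in serum and 0.32 under starvation (exact permutation p = 0.1 for each, adjusted 0.15). The serum difference was 0.40 without control serum replicate 1.

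**Figure D4:**
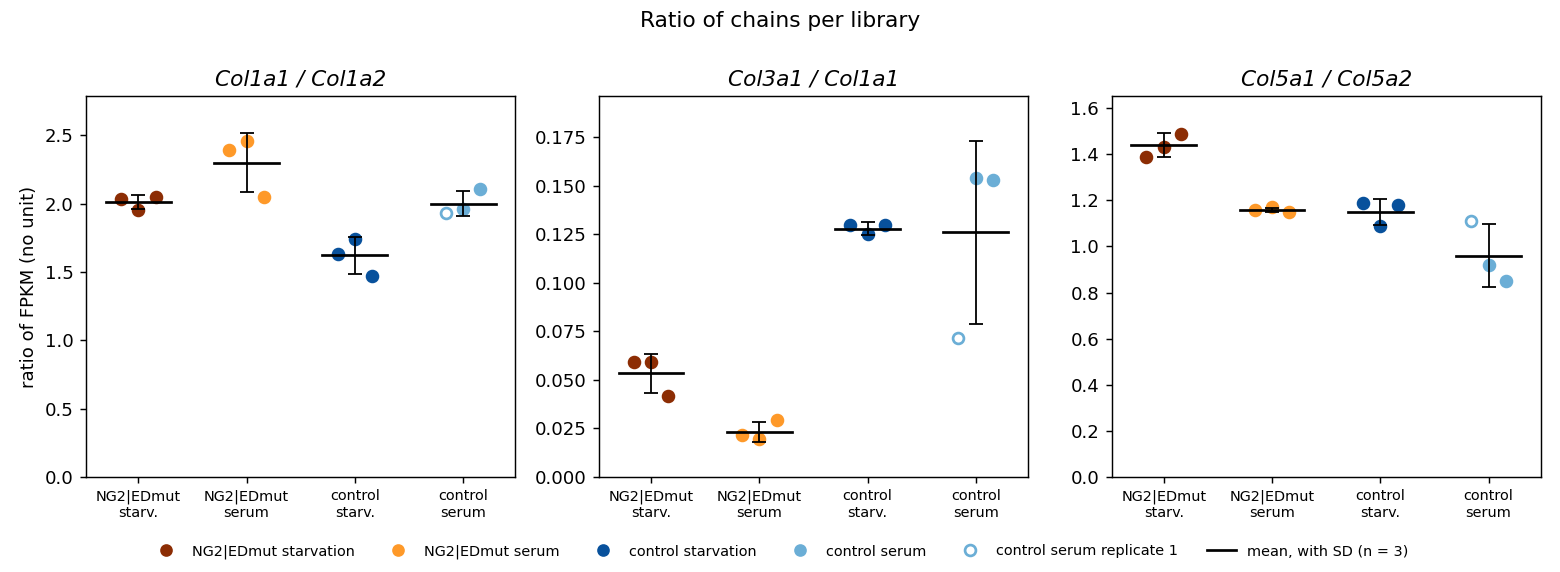
Ratio of FPKM values of Col1a1 to Col1a2, Col3a1 to Col1a1 and Col5a1 to Col5a2 in every library (linear axes from 0, no unit), by group, with an open point for control serum replicate 1 and lines for the mean and SD of 3 replicates. The Col3a1 to Col1a1 ratio lay at 0.0193 to 0.0593 in the NG2|EDmut libraries and at 0.0716 to 0.154 in the control libraries.

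The genes that fold, cut, cross-link, degrade and bind fibrillar collagens were described from 6 lists, with the background shares given above. Of 23 genes for collagen folding and export, 5 rose and 7 fell in NG2|EDmut cells in serum, and 7 rose and 9 fell under starvation. P4ha3, a subunit of a prolyl 4-hydroxylase that stabilizes the helix, averaged 9.11 ± 2.36 CPM in NG2|EDmut serum and 89.3 ± 27.3 CPM in control serum (SD, n = 3 each; log2 fold change -3.29, adjusted p = 3.63e-06, edgeR). P3h2, a prolyl 3-hydroxylase, moved the other way, with 29.1 ± 3.23 CPM in NG2|EDmut serum and 2.32 ± 0.913 CPM in control serum (log2 fold change 3.64, adjusted p = 6.1e-06). Both held under starvation, with log2 fold changes of -3.84 for P4ha3 and 4.10 for P3h2. P3h3 fell by 1.51 on the log2 scale in serum (adjusted p = 2.17e-05, edgeR), and P3h1 rose by 1.25 under starvation (adjusted p = 7.76e-06). Thus members of the prolyl 3-hydroxylase family were called in both directions.

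Of 12 tested genes for procollagen cleavage and cross-linking, 3 rose and 4 fell in serum, and 3 rose and 5 fell under starvation. Lox, the lysyl oxidase that starts covalent cross-links, averaged 1650 ± 202 CPM in NG2|EDmut serum and 692 ± 121 CPM in control serum, a log2 fold change of 1.26 ± 0.15 (adjusted p = 6.58e-05, edgeR), and rose by 1.27 under starvation. Its relatives Loxl1 and Loxl2 fell. Loxl1 averaged 59.2 ± 5.79 CPM in NG2|EDmut starvation and 379 ± 10.3 CPM in control starvation (log2 fold change -2.68, adjusted p = 2.89e-07, edgeR), and fell by 1.53 in serum. Loxl2 had log2 fold changes of -2.80 in serum (adjusted p = 5.94e-06, edgeR) and -3.19 under starvation (adjusted p = 1.44e-06).

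Of 21 tested genes of fibril assembly and of the fibril surface, 3 rose and 7 fell in serum (median log2 fold change -0.99), and 2 rose and 11 fell under starvation (median -1.48). Fmod, fibromodulin, which binds type I fibrils and steers their growth, averaged 137 ± 16.3 CPM in NG2|EDmut serum and 952 ± 318 CPM in control serum (log2 fold change -2.80, adjusted p = 2.65e-06, edgeR), and fell by 2.73 under starvation. Bgn, biglycan, averaged 1440 ± 92.1 CPM in NG2|EDmut starvation and 5670 ± 417 CPM in control starvation (log2 fold change -1.97, adjusted p = 4.04e-07, edgeR), and fell by 1.56 in serum. Ogn, osteoglycin, fell by 2.22 under starvation (adjusted p = 2.12e-05), and Col16a1, a collagen associated with fibrils, fell by 3.22 in serum (adjusted p = 8.98e-06).

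Of 11 tested genes for collagen degradation and uptake, 1 rose and 8 fell in serum, and 1 rose and 10 fell under starvation, with medians of -0.85 and -1.46. Mmp2, a gelatinase, averaged 888 ± 126 CPM in NG2|EDmut serum and 2540 ± 343 CPM in control serum (log2 fold change -1.52, adjusted p = 1.19e-05, edgeR), and fell by 1.83 under starvation. Ctsk, the collagen-cleaving cathepsin K, fell by 1.01 in serum (adjusted p = 0.000422, edgeR). The inhibitors Timp1 and Timp2 fell by 2.34 and 1.46 under starvation (adjusted p = 1.49e-06 and 2.49e-06), whereas Timp3 rose by 2.45 ± 0.36 in serum (adjusted p = 0.000315) and by 3.13 (adjusted p = 4.05e-07) without control serum replicate 1. The called genes of this list held both proteases and their inhibitors.

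Of 8 tested collagen receptors, 1 rose and 1 fell in serum, and 2 rose and 1 fell under starvation. Itga10, the integrin chain that binds type II collagen in cartilage, averaged 154 ± 11.4 CPM in NG2|EDmut serum and 58.2 ± 12.6 CPM in control serum (log2 fold change 1.41, adjusted p = 0.000333, edgeR), and rose by 1.86 under starvation. Itga1, a collagen-binding integrin chain, fell by 1.38 in serum (adjusted p = 0.000686, edgeR) and by 0.64 under starvation (adjusted p = 0.0383). Ddr2, a receptor kinase for fibrillar collagen, rose by 0.73 under starvation (adjusted p = 0.0136), and Ddr1 had a log2 difference of 0.15 in serum (adjusted p = 0.328). Of 26 transcription factors known to act on collagen genes, 9 rose and 6 fell in serum, and 6 rose and 7 fell under starvation. Sp7, the osteoblast factor osterix, averaged 752 ± 73.6 CPM in NG2|EDmut serum and 170 ± 49.5 CPM in control serum (log2 fold change 2.15, adjusted p = 8.93e-06, edgeR), and rose by 3.68 under starvation. Sox6, which acts with Sox9 on cartilage genes, rose by 2.41 in serum and 3.72 under starvation, Creb3l1 by 1.42 in serum and Nfyc, a subunit of the factor that binds CCAAT, by 1.30 under starvation. Sp7 is also 1 of the 6 osteoblast markers.

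**Figure D5:**
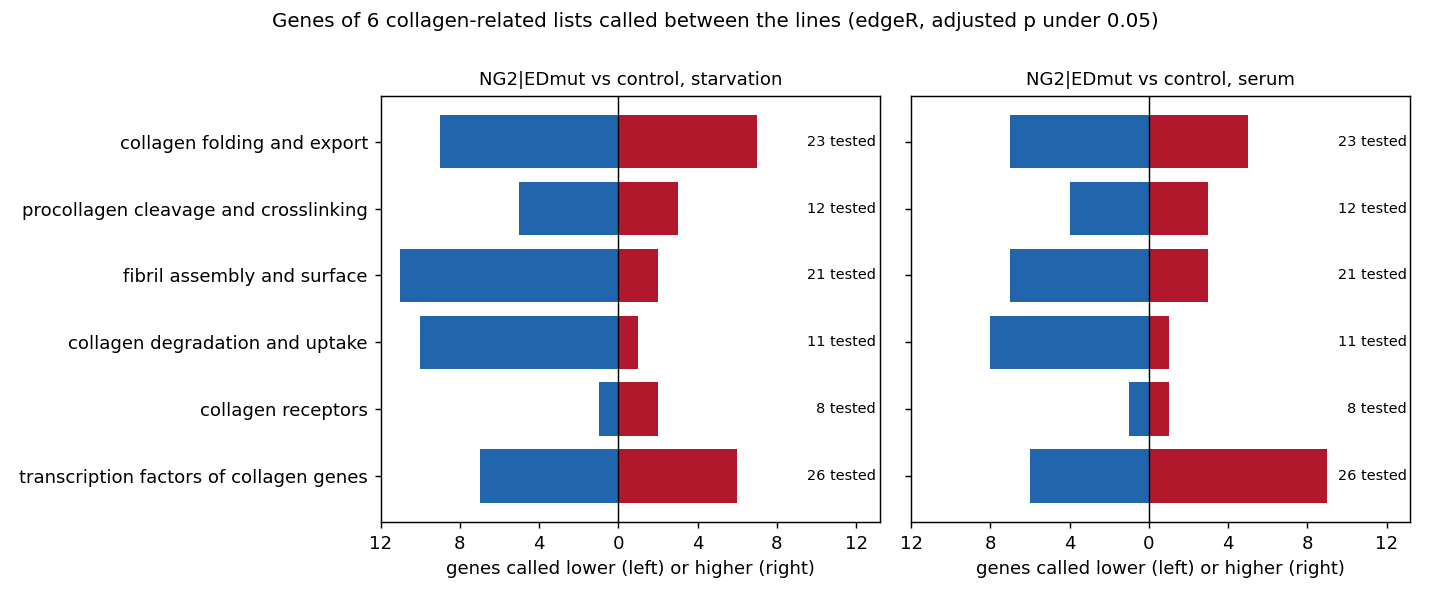
Number of genes called lower (left) or higher (right) in NG2|EDmut than in control cells (edgeR, adjusted p under 0.05) in 6 lists of genes related to fibrillar collagen, under starvation and in serum, with the number tested beside each bar. Of the 11 tested degradation and uptake genes, a list that includes protease inhibitors, 10 were called lower under starvation. The share over all tested genes was 20.1%. The transcription factors were split between the directions.

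The genes whose pattern was most like that of a member were found over the 12 libraries by the root mean square difference of centred log2 CPM among tested genes with a mean of at least 10 CPM. For Col27a1 these included Vnn1 (0.212), Cilp2 (0.241) and Ddx3y (0.27). Vnn1 averaged 1.56 CPM in NG2|EDmut starvation, 1.59 CPM in NG2|EDmut serum, 30.0 CPM in control starvation and 23.5 CPM in control serum. Ddx3y, a gene of the Y chromosome, averaged 1.40, 1.27, 25.9 and 30.2 CPM in the same groups. Both genes were lower in the NG2|EDmut groups than in the control groups of the same medium, which follows from their choice by likeness to Col27a1. For Col3a1 the nearest genes were Gcnt1 (0.238), Gja1 (0.251), Arsb (0.286) and Armcx2 (0.289). Gja1, a gap junction protein, averaged 299 CPM in NG2|EDmut starvation, 155 CPM in NG2|EDmut serum, 559 CPM in control starvation and 510 CPM in control serum. For Col1a1 they were Arih1, Zfp143, Cpsf7 and Snx8 (0.0569 to 0.0779), and for Col5a1 Rgp1, Ubr2, Enox1 and Secisbp2 (0.101 to 0.115). Col1a1 and Col5a1 passed no comparison with all 12 libraries. A small distance can come from little change alone, so these distances do not rank likeness between members.

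Promoters of 7 of the 10 members were matched in RefSeq sequences of GRCm38.p6 (Col1a2, Col3a1, Col5a1, Col5a3, Col11a1, Col24a1 and Col27a1). The 250 bases before the RefSeq start are shown for the 4 members that fell in both media and, for contrast, for Col1a2, which did not pass in either. Capitals mark every match on either strand to TATAAA, the letters of the TATA box, to CCAAT, the letters of the CCAAT box, or to GGGCGG, the letters of a site for Sp1. No match overlapped another.
Col3a1 (chr1:45311288-45311537, plus strand): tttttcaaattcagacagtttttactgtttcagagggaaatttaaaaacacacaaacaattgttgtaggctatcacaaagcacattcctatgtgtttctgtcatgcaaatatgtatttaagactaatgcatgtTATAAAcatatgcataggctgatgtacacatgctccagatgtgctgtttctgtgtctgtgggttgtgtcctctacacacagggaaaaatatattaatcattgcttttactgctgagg
Col5a3 (chr9:20815068-20815317, minus strand): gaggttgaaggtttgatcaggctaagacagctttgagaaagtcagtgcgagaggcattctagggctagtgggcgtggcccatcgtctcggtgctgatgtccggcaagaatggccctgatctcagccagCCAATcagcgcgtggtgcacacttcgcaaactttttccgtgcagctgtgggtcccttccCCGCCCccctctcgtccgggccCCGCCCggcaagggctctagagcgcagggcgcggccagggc
Col24a1 (chr3:145292222-145292471, plus strand): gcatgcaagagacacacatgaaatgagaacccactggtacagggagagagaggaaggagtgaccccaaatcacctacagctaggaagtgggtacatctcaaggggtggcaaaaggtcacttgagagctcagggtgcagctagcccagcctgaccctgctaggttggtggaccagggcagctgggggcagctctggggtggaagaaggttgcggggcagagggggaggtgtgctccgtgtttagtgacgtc
Col27a1 (chr4:63215162-63215411, plus strand): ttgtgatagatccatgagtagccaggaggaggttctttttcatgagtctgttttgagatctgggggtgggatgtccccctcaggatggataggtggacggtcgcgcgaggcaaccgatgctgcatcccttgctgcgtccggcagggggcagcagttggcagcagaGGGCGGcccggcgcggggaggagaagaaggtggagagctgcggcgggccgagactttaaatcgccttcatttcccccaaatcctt
Col1a2 (chr6:4505368-4505617, plus strand): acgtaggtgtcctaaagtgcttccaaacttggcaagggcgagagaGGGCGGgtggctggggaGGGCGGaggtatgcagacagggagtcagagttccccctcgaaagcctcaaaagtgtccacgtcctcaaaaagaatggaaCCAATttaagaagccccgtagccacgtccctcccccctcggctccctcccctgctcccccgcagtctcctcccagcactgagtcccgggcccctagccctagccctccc
None of the 3 motifs was found in all 4 promoters of the members that fell. Col3a1 held TATAAA with its first base at -117 from the start and no CpG, with 35.2% GC. Col5a3 held CCAAT at -122 and GGGCGG at -63 and -41, with 17 CpG. Col27a1 held GGGCGG at -85, and Col24a1 held none of the 3. Col1a2 held CCAAT at -109 and GGGCGG at -205 and -188. Among 32851 RefSeq promoters of the same length TATAAA was found in 12.4%, CCAAT in 33.8% and GGGCGG in 32.7%, the median GC content was 52.4% and the median number of CpG was 6. A match is a description of letters and not a bound site, and the RefSeq starts of Col1a2 and Col27a1 lay 804 and 1408 bases from the gene starts of the deposited table.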

How the data were processed

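RNA came from 12 cultures, in 4 groups of 3 named by the labels. Libraries were poly(A) TruSeq Stranded, read on an Illumina NovaSeq. Per the paper and the processing notes, the authors mapped reads with HISAT2 and assembled and quantified them with StringTie, gffcompare and edgeR. The versions, the genome build and the counting strand were not stated. Gene starts in the table match GENCODE M21 (GRCm38). The authors deposited whole estimated counts derived from StringTie coverage, in which 1 unit is not 1 read, and FPKM values from the same coverage. Every value column was mapped to a library by name.

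Here, estimated counts were tested with edgeR 4.0.16 in R 4.3.3 (filterByExpr, TMM, quasi-likelihood fit with 1 mean per group over 12 libraries, 8 residual degrees of freedom, Benjamini-Hochberg adjustment over 18703 genes, threshold 0.05). The script was tested on simulated counts. The quasi-likelihood test gives no SE, so the SE shown was the size of the log2 fold change divided by the square root of its F statistic. FPKM was used for levels between genes and for ratios, which were compared by exact permutation tests. The alternatives were DESeq2 1.42.0, other scalings and filters, a minimum log2 fold change of 1, only the groups compared, the replicate block, limma-trend (limma 3.58.1) on log2(FPKM + 1) and log2(FPKM + 0.1), and each library left out. Besides the members, the text names from each list up to 3 genes ranked first by adjusted p in each line comparison (mean of at least 10 CPM in 1 group), Col11a2, and the 4 genes of most like pattern for each of 4 members, of which 1 is not reported here. The members and lists were chosen with earlier results of these data known. Genes that overlap a member can share its reads: Gm43921 with Col1a2, Gm47302 with Col3a1, Gm38211 with Col5a2, D530037P16Rik with Col24a1, and, antisense, 2810430I11Rik and Gm13372 with Col5a1. Their highest estimated counts were 279, 147, 90, 4, 373 and 227.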

Additional observations from a re-analysis of the deposited data

Results flagged for a closer look

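The starvation difference of Col2a1 differed between the lines by the interaction term (1.515 on the log2 scale, SE 0.387, adjusted p = 0.0484, edgeR), with log2 differences between starvation and serum of -0.21 in NG2|EDmut cells and -1.73 in control cells. The call was lost in 12 of 23 alternatives, among them the fit without a filter on low counts (adjusted p = 0.0717), the replicate block (adjusted p = 0.091) and 10 of the 12 fits with 1 library left out. Over all 23 the adjusted p was 0.00358 to 0.125, and without control serum replicate 1 it was 0.0106.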

How the results depend on the processing

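The count of members called lower was 5 in each line comparison in every alternative, except 4 under starvation with a minimum log2 fold change of 1, where Col11a1 was lost. Higher calls between the lines were 0 to 2 in serum and 0 to 1 under starvation with 1 library left out. There was 1 under starvation with only the groups compared, where 4019 of 17783 genes were called higher. In NG2|EDmut cells, starvation gave 2 higher and 1 lower call with DESeq2, where 436 of 16498 genes were called higher and 459 lower. It gave 2 higher and 2 lower with only the groups compared, where 1221 of 17542 genes were called higher and 1539 lower. There were 0 higher without the filter on low counts, and 0 to 2 higher and 0 to 1 lower with 1 library left out. In control cells the higher calls were 1 to 2 with 1 library left out. For the interaction, the higher calls were 2 with DESeq2 (828 of 18234 genes called higher), 0 without the filter, and 0 to 2 with 1 library left out. With the replicate block the higher calls were 0 for starvation in NG2|EDmut cells and 0 for the interaction. Same-numbered libraries deviated together with correlations from -0.275 to 0.248, so the numbers were not taken to pair the cultures. Of 1190 recomputed member differences, 52 had the opposite sign, by at most 0.429 in size, and 0 of these were called in either fit. Ribosomal RNA genes took 4.8% of estimated counts in control starvation replicate 2 and 3.7% in control serum replicate 3. They took 3.2% in NG2|EDmut serum replicate 3 and 0.49% to 1.19% in the other libraries. Control starvation replicate 2 and control serum replicate 3 also had the lowest member shares, 4.64% and 4.39%. Without these genes, the members called between the lines were again 5 lower and 0 higher in each medium. Limits were the single line of each kind, 3 cultures per group, control serum replicate 1, uneven ribosomal RNA, and the low level of Col2a1, Col24a1 and Col27a1.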
